A study of Mus musculus with 5 samples.

Results

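Th1reg cells are T helper 1 (Th1) cells that were first rested and then cultured in the medium that induces regulatory T cells. They were compared with the rested cells they were made from. The comparison took 2 of the 5 arrays of the study, 1 array for Th1reg and 1 for rested, as titled by the submitters. All 5 cultures began as naive CD4 T cells from the spleen of C57BL/6 mice, and the labels name no engineered allele. Th1 cells had 4 days of culture with antibodies to CD3 and CD28, IL-2, IL-12 and an IL-4 block. The rested culture was Th1 cells kept 4 days longer in IL-2 with IFN-gamma and IL-4 blocked and without CD3 and CD28 antibodies, 8 days in all. Th1reg cells were rested cells given 4 further days with CD3 and CD28 antibodies, IL-2, TGF-beta and the same 2 blocking antibodies, 12 days in all. The other cultures were Th1+TGFb, in which Th1 cells went into that inducing medium without a rest (8 days in all), and iTreg, in which naive cells spent their 4 days in it. Th1reg and rested therefore differed in receptor stimulation, in TGF-beta and in 4 days of culture, and these 3 cannot be told apart here. The labels do not say which mice or how many gave the cells of each culture.

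Regulatory T cells (Tregs) restrain immune responses and depend on the transcription factor Foxp3. Naive CD4 T cells can be made to express Foxp3 by receptor stimulation in the presence of TGF-beta and IL-2. Th1 cells are effector cells, defined by the transcription factor T-bet (gene Tbx21) and the cytokine IFN-gamma. A T cell deprived of receptor stimulation leaves the cell cycle and raises factors such as Klf2, which drives the genes for lymphoid homing and egress, and a new receptor signal removes them.

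Each level given here is the log2 of a probe's processed signal minus the log2 of the 75th percentile of all non-control probes on its array. A probe that the scanner software did not find well above background has only a bound: it was raised, where it lay below, to the lowest well-measured signal of that array, which lay at a level of -3.23 in rested and -3.96 in Th1reg. A difference against such a value is written as at least so many fold. Levels are compared between arrays for 1 probe and not between probes. Between 45.7% and 48.7% of the spots of each array were well above background, and 0 were saturated. Of 21366 genes with a named probe, 12285 were well above background in rested and 12252 in Th1reg, and 13331 were so on at least 1 of the 2 and were compared. With 1 array a group there were no replicates, no test and no spread between cultures. Repeat spots of a probe had a median SD of 0.0553 log2 units in Th1reg and 0.0729 in rested, rising to 0.179 and 0.203 where the signal was under 100. That spread is technical and says nothing of how cultures of 1 kind vary.

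Scaling mattered more in this comparison than the repeat spots did. The 75th percentile of signal was 306 in Th1reg and 144 in rested, 1.08 higher on the log2 scale in Th1reg. The 8 spike-in probes, which detect RNA added to each sample, went the other way: before scaling they were lower in Th1reg by 0.22 to 0.50 log2 units, and their mean signal was 1.30-fold lower there. The sources used here do not say how the spike-in RNA was dosed. Scaling to the spike-ins instead adds 1.47 to every log2 difference measured on both arrays. Bounds are shifted likewise but are set to 0 where they would change direction. The median of all compared genes goes from 0.29 to 1.75. In bulk RNA, fewer cells of a type and less RNA per cell cannot be told apart. Differences below are on the 75th percentile scale unless the spike-in scale is named.

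**Figure D1:**
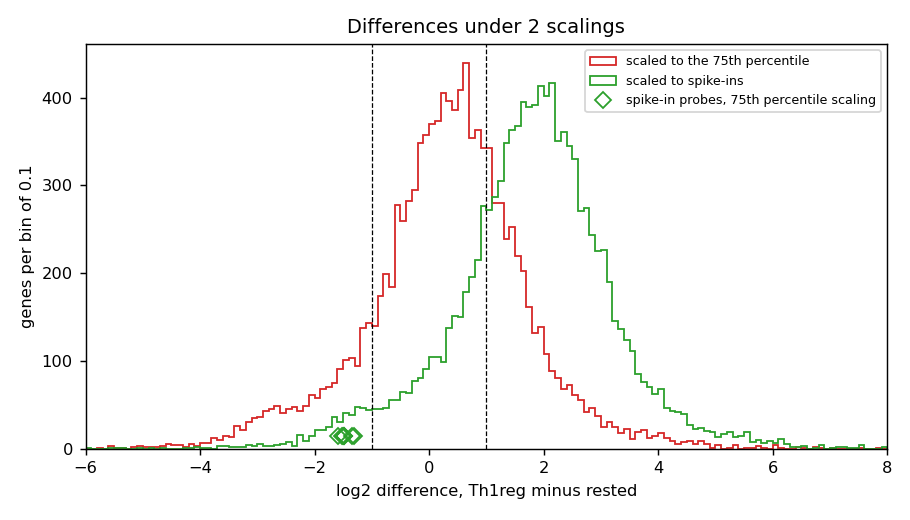
The 11206 genes measured on both arrays, as counts per bin of 0.1 of the log2 difference Th1reg minus rested, scaled to the 75th percentile (red) or to the spike-ins (green). Dashed lines mark 2-fold, and diamonds mark the 8 spike-in probes, which lie between -1.58 and -1.31 on the 75th percentile scale.

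At 2-fold, 3680 of the 13331 genes (27.6%) were higher in Th1reg and 2666 (20.0%) were lower, 47.6% in all. The list counts below are to be read beside these shares. With the spike-ins 9533 (71.5%) were higher and 732 (5.49%) were lower, 77.0% in all. Of the genes past 2-fold, 58.0% were higher on the 75th percentile scale, 92.9% with the spike-ins, 36.4% with the 75th percentile of probes detected on all arrays and 47.1% with the median of those probes. Since the spike-in shift is a constant above 0, all 3680 genes that were higher on the first scale had to be higher on the second. Of the 2666 lower genes, 732 remained 2-fold lower with the spike-ins and 1934 came within 2-fold. The shares moved with brightness: when the genes measured on both arrays were split by mean level into 5 equal bins, 12.4% of the dimmest bin were 2-fold higher and 31.4% lower, against 37.8% and 8.57% of the brightest bin. Where another probe of a gene could be compared, it went the same way for 92.1% of 1217 probes of higher genes and for 88.0% of 551 probes of lower genes. It was also 2-fold in that direction for 69.8% and 69.7% of them.

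**Figure D2:**
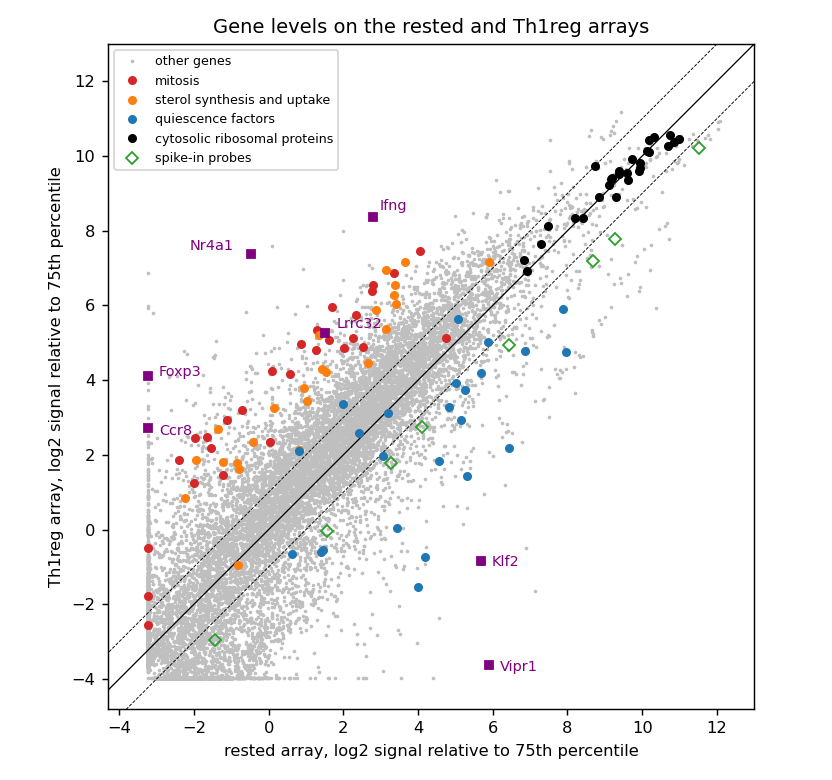
Level of each compared gene in rested (x axis) and Th1reg (y axis), as log2 signal relative to the array's 75th percentile, with values not well above background drawn at the array's lowest well-measured level. The solid line marks equal levels and dashed lines 2-fold; nearly all mitosis and sterol genes lie above the line, most quiescence factors below it, cytosolic ribosomal proteins along it, and the spike-in probes below it.

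Foxp3, the transcription factor that defines the Treg lineage, had a level of 4.12 in Th1reg and 5.26 in iTreg. It was not well above background in Th1 (-5.34), Th1+TGFb (-5.27) or rested (-3.52). Both cultures with measured Foxp3 had been in the inducing medium, and Th1+TGFb, which had been in it without a rest, was among those without. Th1reg exceeded rested at least 163-fold for Foxp3. Ccr8, a chemokine receptor of activated Tregs, was at 2.72 in Th1reg, beside -1.62 in Th1, -0.24 in Th1+TGFb and 2.11 in iTreg, and not well above background in rested, a difference of at least 61.6-fold from rested. A further Ccr8 probe, also not well above background in rested, gave a log2 difference of at least 3.87. Lrrc32 encodes GARP, which docks latent TGF-beta on the Treg surface. Its level was 5.25 in Th1reg and 1.52 in rested, beside 1.35 in Th1, 0.61 in Th1+TGFb and 6.05 in iTreg, so the pair of arrays with Foxp3 stood above the other 3. The Lrrc32 difference of 13.3-fold over rested, 3.74 on the log2 scale, carried an error of 0.20 by the scanner software's own estimate.

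Klf2 differed the other way between the 2 arrays. Its level was -0.84 in Th1reg and 5.69 in rested, beside 0.53 in Th1, -0.24 in Th1+TGFb and 5.84 in iTreg. Th1reg was 92.0-fold lower than rested, and 33.3-fold lower with the spike-ins. The 2 arrays with Foxp3 thus held the lowest and the highest Klf2 level of the 5.

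The Treg signature list had 25 genes with a probe, all of them measured on at least 1 of the arrays. In Th1reg 13 were 2-fold higher (52.0%) and 3 lower, with a median difference of 1.24 against 0.29 over all genes. With the spike-ins 22 of the 25 genes were 2-fold higher and 0 lower, where 71.5% of all compared genes were higher. The higher group on the 75th percentile scale held surface receptors of the TNF receptor family. Tnfrsf9 (4-1BB) was at 4.60 in Th1reg and -1.45 in rested, beside 5.71 in Th1, 5.29 in Th1+TGFb and 1.63 in iTreg, which is 66.3-fold over rested by this probe and a log2 difference of 2.22 by another. Tnfrsf4 (OX40) was 10.6-fold higher and Tnfrsf18 (GITR) 3.17-fold higher. All of these levels were also high in Th1 and Th1+TGFb, unlike those of Foxp3.

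Il2ra, the high-affinity IL-2 receptor chain CD25, was at 7.92 in Th1reg and 5.07 in rested, beside 8.03 in Th1, 7.01 in Th1+TGFb and 8.24 in iTreg. Rested was the lowest of the 5, and Th1reg was 7.23-fold above it. Ikzf4 encodes Eos, a partner of Foxp3 in repression. Its level was 4.71 in Th1reg and 1.51 in rested, beside 3.50 in Th1, 4.20 in Th1+TGFb and 5.54 in iTreg, 9.16-fold over rested, while 1 other probe gave a log2 difference of 3.31 and another at least 1.20. Nt5e (CD73), which makes adenosine outside the cell, was 6.60-fold higher, Capg 7.17-fold, Tigit 4.68-fold and Izumo1r (folate receptor 4) 3.23-fold. Areg was at least 2.36-fold higher.

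Other Treg-associated genes did not share that difference. Ctla4, the inhibitory receptor of Tregs and activated T cells, was at 3.66 in Th1reg and 2.76 in rested, beside 4.51 in Th1, 4.37 in Th1+TGFb and 2.36 in iTreg. Its difference of 0.91 (software error 0.20) was under 2-fold. Within 2-fold lay also Nrp1 (0.03), Gzmb (0.23), Swap70 (0.61), Ebi3 (0.67), Il1rl1 (0.76), Icos (-0.37) and Entpd1 (-0.46). Gpr83 could not be placed: it was at -3.17 in Th1reg and -1.42 in iTreg and was not well above background in Th1, Th1+TGFb or rested, and its bound against rested was 0.05. The 3 lower genes were Ikzf2 (Helios), Prdm1 (Blimp-1) and Klrg1. Ikzf2 was 2.37-fold lower and Prdm1 2.57-fold lower, but with the spike-ins their log2 differences were 0.22 and 0.10, the other direction. Klrg1 was at least 3.10-fold lower, a log2 difference of -0.17 with the spike-ins. Il10 had levels of 1.67 (Th1) and 2.03 (Th1+TGFb) and lay near background in rested, Th1reg and iTreg.

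**Figure D3:**
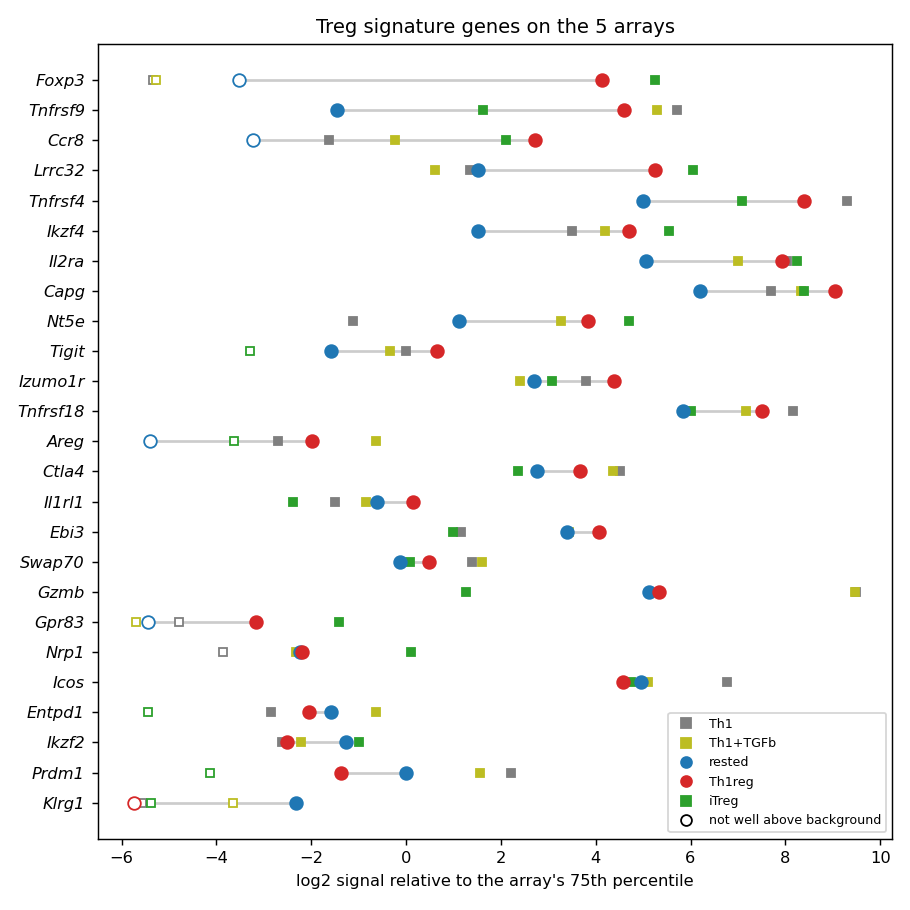
Level of each Treg signature gene (y axis) as log2 signal relative to the array's 75th percentile (x axis), with 1 point per array, open where not well above background. Grey lines join rested (blue) and Th1reg (red); Foxp3, Tnfrsf9 and Ccr8 have the longest upward shifts, and Ctla4 and the genes below it in the plot lie within 2-fold apart from Gpr83, which has only a bound, and from Ikzf2, Prdm1 and Klrg1 at the foot.

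TGF-beta signals through its type I and type II receptors to Smad proteins, which induce their own inhibitors. Of 24 measured genes in the list for this pathway, 8 were 2-fold higher in Th1reg (33.3%) and 9 lower (37.5%). Over all genes these shares were 27.6% and 20.0%. The list's median of -0.41 became 1.05 with the spike-ins, the opposite sign. Pmepa1, a Smad-induced feedback inhibitor of the pathway, was at 2.47 in Th1reg and -2.16 in rested, beside -0.06 in Th1, 2.07 in Th1+TGFb and 2.93 in iTreg. The 3 arrays of cells given TGF-beta were the highest 3 for Pmepa1, and Th1reg exceeded rested 24.9-fold. Skil, a Smad co-repressor, had the same 3 arrays on top: 2.80 in Th1reg and -0.06 in rested, beside 0.44 in Th1, 1.81 in Th1+TGFb and 2.79 in iTreg, 7.27-fold over rested.

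Among the ligands, Tgfb1 was 3.74-fold higher in Th1reg and Tgfb3 2.21-fold higher, while Tgfb2 was at least 6.73-fold lower. Among the receptors, Tgfbr1 was 4.96-fold higher, and Tgfbr2 had a log2 difference of -1.42, or 0.04 with the spike-ins. The signalling Smads were lower or within 2-fold: the log2 difference was -1.82 for Smad3, -0.62 for Smad4 and 0.67 for Smad2. Of the inhibitory Smads, Smad6 was at least 6.92-fold lower and Smad7 had a difference of -1.19, or 0.28 with the spike-ins. Latent TGF-beta binding proteins were split, with Ltbp1 at least 5.68-fold lower and Ltbp3 3.12-fold higher by 1 probe and 3.19 on the log2 scale by another.

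Genes that a T cell turns on within hours of receptor signalling were among the largest differences. Of 22 immediate early and NR4A genes, 14 (63.6%) were higher and 0 lower, with a median of 1.49. Nr4a1, a nuclear receptor used as a readout of receptor signal strength, was at 7.39 in Th1reg and -0.48 in rested, beside 6.80 in Th1, 6.85 in Th1+TGFb and 6.61 in iTreg. Rested stood far below the 4 cultures that had received CD3 and CD28 antibodies in their last step, and Th1reg was 233-fold above it. Egr2 was 108-fold higher, Egr1 at least 142-fold, Atf3 12.9-fold, Nr4a2 10.6-fold, Irf4 10.4-fold, Batf3 9.03-fold and Myc 5.12-fold. Jun, Batf, Fosl2 and Ier5 had differences of -0.58, -0.53, -0.68 and -0.85. A further Fosl2 probe gave a log2 difference at least as low as -1.19, and a further Ier5 probe gave -0.94.

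Inhibitors of the MAP kinase cascade, which receptor signals also induce, had 9 of 14 measured members higher and 3 lower (median 1.27). Dusp4, a phosphatase that inactivates ERK, was at 4.69 in Th1reg and -2.18 in rested, beside 4.39 in Th1, 3.16 in Th1+TGFb and 2.15 in iTreg, 117-fold over rested. Dusp14 was 21.7-fold and Spry1 9.18-fold higher. Spry2 went the other way: it was at -2.82 in Th1reg and 1.54 in rested, beside -1.88 in Th1, 0.43 in Th1+TGFb and -0.93 in iTreg, 20.6-fold lower than rested. Dgka, which degrades the diacylglycerol made by receptor signalling, was 4.43-fold lower. The 2 Sprouty genes of this list thus differed in opposite directions.

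The receptor itself differed little by the brightest probe of each gene. Of 22 genes of the T cell receptor complex and its proximal kinases, 1 was higher and 3 lower, with a median of -0.29 that turned to 1.18 with the spike-ins and to 0.06 with another background correction. Cd3d had a difference of -0.62. Cd4 had a difference of -0.47 by its brightest probe and of -1.21, past 2-fold, by another. Ptpn6, the phosphatase SHP-1, was 3.18-fold higher. Cd28 was 2.56-fold lower, Cd247 (the zeta chain) 2.80-fold lower and Ptpn22 2.38-fold lower. With the spike-ins these 3 had log2 differences of 0.11, -0.02 and 0.21.

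Costimulatory and checkpoint receptors had 11 of 25 measured members higher and 8 lower (median 0.77). Pdcd1lg2, the PD-1 ligand PD-L2, was at 4.12 in Th1reg and -1.77 in rested, beside 3.29 in Th1, 3.26 in Th1+TGFb and 1.22 in iTreg, 59.4-fold over rested. Cd200 was 28.4-fold higher. Cd27, a receptor of resting and memory T cells, was 7.31-fold lower and Vsir (VISTA) 6.33-fold lower, and both stayed over 2-fold lower with the spike-ins, at -1.40 and -1.20 on the log2 scale.

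Effector cytokine transcripts were high on the Th1reg array. Ifng was at 8.37 in Th1reg and 2.79 in rested, beside 10.23 in Th1, 9.56 in Th1+TGFb and 1.27 in iTreg. Th1reg was 47.9-fold above rested, while the iTreg array, the other with Foxp3, was the lowest of the 5. Of 19 measured cytokine ligand genes, 10 were higher and 5 lower, with a median of 1.27. Csf2 (GM-CSF) was at 4.78 in Th1reg and -2.27 in rested, beside -1.28 in Th1, 2.08 in Th1+TGFb and -0.78 in iTreg, so Th1reg was the highest array and lay 132-fold above rested. Lta (lymphotoxin alpha) was 65.0-fold higher, Tnfsf11 (RANKL) 41.1-fold and Il3 at least 47.6-fold. Tnfsf8 (CD30 ligand) was 6.78-fold lower and Csf1 5.82-fold lower.

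Chemokine genes gave the largest bounds of the comparison. Ccl1, a ligand of Ccr8, was at 4.86 in Th1+TGFb, 6.87 in Th1reg and 3.40 in iTreg, and was not well above background in Th1 (-5.73) or rested (-4.29). The 3 arrays with Ccl1 were those of the inducing medium, and Th1reg exceeded rested at least 1094-fold. Xcl1, a chemokine for cross-presenting dendritic cells, was at least 592-fold higher. Ccl3 was at least 571-fold higher and Ccl4 184-fold higher. Ccl5, a late product of effector and memory T cells, was at 3.01 in Th1reg and 7.52 in rested, beside 6.29 in Th1, 9.74 in Th1+TGFb and -0.28 in iTreg. It was 22.7-fold lower than in rested. Of 9 measured chemokine ligands 6 were higher and 2 lower, with a median of 2.35.

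Th1 genes did not move as a block. Of 25 measured factors and receptors 6 were higher and 12 lower, and the median of -0.85 turned to 0.61 with the spike-ins. Tbx21, which encodes T-bet, was at 4.86 in Th1reg and 4.23 in rested, beside 6.42 in Th1, 4.71 in Th1+TGFb and 0.58 in iTreg. Th1reg and rested were within 2-fold of each other, at 1.55-fold (0.63 on the log2 scale, software error 0.20), and both lay far above iTreg. The cytotoxic granule gene Nkg7 was 6.06-fold higher, Il12rb1 (a chain of the IL-12 receptor) 4.71-fold, Bhlhe40 4.37-fold, Klrc1 4.19-fold, Prf1 (perforin) 3.05-fold and Zeb2 at least 4.48-fold. Cxcr6, a receptor of tissue-homing Th1 cells, was at 1.96 in Th1reg and 6.00 in rested, beside 0.93 in Th1, 6.33 in Th1+TGFb and 0.68 in iTreg, 16.4-fold lower than in rested. Ly6c1 was 4.74-fold lower by its brightest probe and by 8.23 on the log2 scale by another. Stat4 and Il18r1, which carry IL-12 and IL-18 signals, had log2 differences of -1.76 and -2.17, or -0.29 and -0.71 with the spike-ins.

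Interferon-stimulated genes were lower in Th1reg for 15 of 27 measured members and higher for 1, with a median of -1.09 that turned to 0.37 with the spike-ins, where 7 remained 2-fold lower. IFN-gamma was blocked by antibody in both cultures. Rtp4 was at -0.57 in Th1reg and 3.54 in rested, beside -2.88 in Th1, -0.64 in Th1+TGFb and 0.86 in iTreg, 17.3-fold lower than in rested. Ifit3 was at least 18.6-fold lower, Oas1a 12.3-fold, Oas2 at least 10.8-fold, Usp18 7.18-fold and Irf7 4.37-fold. For Rtp4, Ifit3, Oas1a and Oas2, rested was the highest of the 5 arrays. Usp18 was highest in Th1 at 5.31. Ifi35 was the exception, 2.003-fold higher.

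The guanylate-binding proteins and related GTPases that IFN-gamma induces had 8 of 16 members lower and 1 higher, with a median of -0.93 that turned to 0.53 with the spike-ins. Gbp6 was 10.1-fold lower by its brightest probe and by 1.79 on the log2 scale by another, and members of this family are similar in sequence. Gbp9, Gbp8 and Gbp4 were 6.62-fold, 6.12-fold and 4.82-fold lower, and Gbp5 2.25-fold higher. Of 15 MHC class I and antigen-processing genes 1 was lower and 0 higher. That gene was H2-Q4, 6.11-fold lower, whose family is also similar in sequence. H2-K1 and H2-D1 differed by -0.90 and -0.82, and by 0.57 and 0.65 with the spike-ins.

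Cytokine receptors and the SOCS inhibitors that they induce split both ways. Of 24 measured, 7 were higher (29.2%) and 8 lower (33.3%), against 27.6% and 20.0% over all genes. Their median of 0.22 turned to -0.29 when the percentile was taken over detected probes, and was also below 0 with their median. Cish, a target of IL-2 and STAT5 signalling, was at 6.69 in Th1reg and 1.99 in rested, beside 6.13 in Th1, 5.93 in Th1+TGFb and 5.58 in iTreg. Rested, which had also been cultured in IL-2, again stood apart, 26.0-fold below Th1reg. Socs2, another such target, was 12.1-fold higher. Il7r, the receptor for the survival cytokine IL-7, was 10.5-fold lower, Il6ra 10.1-fold, Il4ra 5.50-fold and Il10ra 3.85-fold.

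Quiescence factors had a lower median than every other list apart from the B cell markers. Of 25 measured members 19 (76.0%) were lower and 2 higher, with a median of -1.96, or -0.49 with the spike-ins, where 8 remained 2-fold lower. Klf3, a relative of Klf2, was at -1.55 in Th1reg and 4.00 in rested, beside -0.58 in Th1, -0.54 in Th1+TGFb and 4.57 in iTreg, 46.8-fold lower than in rested. Tcf7, which encodes TCF-1 of naive and memory T cells, was at -0.73 in Th1reg and 4.19 in rested, beside 0.39 in Th1, 1.97 in Th1+TGFb and 2.75 in iTreg, 30.2-fold lower. Satb1, a chromatin organiser, was at 2.18 in Th1reg and 6.42 in rested, beside 7.29 in Th1, 6.48 in Th1+TGFb and 3.79 in iTreg, 18.9-fold lower. Unlike Klf2 and Klf3, Satb1 was lowest in the 2 arrays with Foxp3. Pik3ip1, an inhibitor of PI3 kinase, was 14.9-fold lower, and the cell cycle inhibitor Cdkn1b (p27) 4.66-fold. Tob2 and Klf10 were higher, by 2.55-fold and 2.45-fold.

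Of 20 homing and egress genes 12 were lower and 1 higher, with a median of -1.53, or -0.06 with the spike-ins, where 6 remained lower. S1pr1, the receptor by which T cells leave lymphoid tissue, was at 0.63 in Th1reg and 5.05 in rested, beside 2.12 in Th1, 1.28 in Th1+TGFb and 2.90 in iTreg, 21.4-fold lower than rested. S1pr4 was 5.89-fold lower and Cxcr4 at least 7.98-fold. S1pr1 is a known target of Klf2. Cd69, which removes S1pr1 from the surface, was 3.82-fold higher. The Gimap GTPases, which support the survival of resting lymphocytes, had 2 of 8 lower and 0 higher, and their median of -0.85 turned to 0.62 with the spike-ins.

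Genes of cyclic AMP signalling included several of the lowest values. Vipr1, a receptor that raises cyclic AMP, was at -3.63 in Th1reg and 5.90 in rested, beside 0.05 in Th1, -2.94 in Th1+TGFb and 3.55 in iTreg. This probe gave a 743-fold lower level in Th1reg, the largest fold among genes measured on both arrays, and a further probe, not well above background in Th1reg, a log2 difference at least as low as -3.28. The 743-fold value is limited by a Th1reg level near the lowest well-measured level of that array (-3.96). Pde2a, a phosphodiesterase, was at -0.50 in Th1reg and 6.88 in rested, beside 0.94 in Th1, 0.31 in Th1+TGFb and 5.02 in iTreg, 167-fold lower. Adcy6 was 28.0-fold and Pde3b 9.74-fold lower. Receptors that raise cyclic AMP in response to prostaglandin or adenosine were higher: Ptger4 4.95-fold, Ptger2 2.06-fold and Adora2b at least 17.4-fold. The list had 6 of 19 higher and 8 lower, and its median of -0.78 turned to 0.68 with the spike-ins.

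Proliferation genes were higher almost throughout. All 30 DNA replication genes were at least 2-fold higher, with differences from 1.57 to 4.70 and a median of 3.39, and 27 of 29 measured mitosis genes were higher and 0 lower, with a median of 3.54. Mcm10, a DNA replication factor, was at 4.78 in Th1reg and 0.08 in rested, beside 4.49 in Th1, 3.10 in Th1+TGFb and 3.96 in iTreg, 26.1-fold over rested. Pole, Gins2, Gins1 and Lig1 were 24.3-fold, 24.2-fold, 23.8-fold and 21.3-fold higher. Bub1, a kinase of the spindle checkpoint, was at 2.45 in Th1reg and -1.96 in rested, beside 2.27 in Th1, 1.005 in Th1+TGFb and 1.78 in iTreg, 21.3-fold over rested. Plk1 was 19.3-fold and Kif2c 19.2-fold higher. For each of these 8 genes rested was the lowest array, and Th1+TGFb the next lowest. Of 23 G1 cyclins, E2F factors and inhibitors 14 were higher and 2 lower. E2f8 was 19.4-fold and E2f1 7.99-fold higher, and Cdkn1b and Cdkn2b were the 2 lower genes.

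Sterol synthesis and uptake, which supplies membrane to growing cells, had 23 of 24 measured genes higher and 0 lower, with a median of 2.86. Cyp51, a late enzyme of the pathway, was at 2.69 in Th1reg and -1.36 in rested, beside 2.34 in Th1, 1.81 in Th1+TGFb and 1.32 in iTreg, 16.5-fold over rested. Hmgcs1, an early enzyme, was at 7.16 in Th1reg and 3.66 in rested, beside 6.77 in Th1, 6.76 in Th1+TGFb and 5.22 in iTreg, 11.3-fold over rested. Idi1 was 14.4-fold, Fdps 13.9-fold and Hsd17b7 13.8-fold higher, and the member within 2-fold was Acat2 (-0.13). A list of sterol efflux and fatty acid genes had 9 of 15 higher and 4 lower (median 1.44). The 4 lower genes, Nr1h3 among them, limit the sterol content of the cell: Mylip, which degrades the LDL receptor, was 48.4-fold lower by its brightest probe and lower by at least 1.23 on the log2 scale by another, which was not well above background in Th1reg, Abcg1 was 7.47-fold lower and Abca1 at least 8.96-fold. The lipid desaturase Scd1 was 41.0-fold higher.

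Promoter windows from RefSeq (GRCm38.p6) are shown for genes of the replication, mitosis, sterol and interferon-stimulated lists. They show letters that match motifs of known regulators. The 250 bases before each start were searched on both strands for CCAAT (bound by NF-Y), TTTGAA (the cell cycle genes homology region, a core element of late cell cycle promoters), TTCCCGCC (an E2F site), TCACNCCAC (the core of the sterol regulatory element, bound by SREBP) and the interferon-stimulated response element (a pair of TTTC runs 2 bases apart). The cyclic AMP response element TGACGTCA was searched for as well and is not marked. Capitals mark each match on either strand, so CCAAT also appears as ATTGG. The stretches were chosen for their matches, and Ccnb2 lies outside the rule by which other genes were named. Uhrf1 is a member of both the replication and the chromatin list. They are Hmgcs1 at chr13:119690102-119690322 on the plus strand, Ccnb2 at chr9:70421559-70421733 and Bub1 at chr2:127831885-127831939 on the minus strand, Uhrf1 at chr17:56303277-56303323 and Ifit3 at chr19:34583361-34583428 on the plus strand, and Oas1a at chr5:120907526-120907557 on the minus strand.
Hmgcs1: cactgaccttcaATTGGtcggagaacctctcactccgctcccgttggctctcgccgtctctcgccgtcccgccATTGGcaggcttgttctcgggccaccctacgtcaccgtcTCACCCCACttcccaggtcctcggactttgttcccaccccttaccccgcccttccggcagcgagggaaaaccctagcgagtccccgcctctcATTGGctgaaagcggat
Ccnb2: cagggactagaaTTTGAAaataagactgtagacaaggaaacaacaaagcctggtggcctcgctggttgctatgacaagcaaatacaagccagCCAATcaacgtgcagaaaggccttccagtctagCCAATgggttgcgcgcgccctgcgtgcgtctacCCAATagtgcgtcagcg
Bub1: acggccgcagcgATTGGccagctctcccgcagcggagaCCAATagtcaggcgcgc
Uhrf1: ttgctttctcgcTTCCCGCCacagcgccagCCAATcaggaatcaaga
Ifit3: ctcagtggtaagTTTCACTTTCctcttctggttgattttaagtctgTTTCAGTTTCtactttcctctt
Oas1a: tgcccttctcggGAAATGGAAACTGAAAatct

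CCAAT was in 18 of 25 windows of mitosis genes (72.0%) and 19 of 30 windows of replication genes (63.3%), against 35.1% of the windows of all compared genes and 33.9% of all windows. Those windows came from 24 of 30 mitosis genes and 25 of 30 replication genes. A gene with several starts can have several windows, so windows are not counts of genes. TTTGAA was in 8 of 25 mitosis windows (32.0%), against 11.3% for the compared genes and 16.0% of all windows. In the Ccnb2 stretch it lay farther from the start than every CCAAT match. TTCCCGCC was in 4 of 30 replication windows (13.3%) and 0 of 25 mitosis windows, against 3.21%. Windows were found for 17 of 25 sterol genes and 21 of 28 interferon-stimulated genes, so the next counts describe those genes and not the whole lists. In the sterol windows CCAAT was in 16 of 20 and the sterol regulatory element in 1, that of Hmgcs1. The interferon-stimulated response element was in 9 of 27 windows of interferon-stimulated genes (33.3%), against 2.76% for the compared genes. The cyclic AMP response element was in 0 of 20 sterol, 1 of 25 mitosis, 1 of 30 replication and 0 of 27 interferon-stimulated windows, against 2.51%. A match describes the letters in these windows and is no evidence of a bound site.

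Other metabolic lists were mostly higher in Th1reg. For amino acid uptake and synthesis, one-carbon metabolism and targets of the stress factor ATF4, 18 of 22 were higher and 1 lower (median 2.29). Asns, asparagine synthetase, was at 6.27 in Th1reg and 1.92 in rested, beside 5.66 in Th1, 5.11 in Th1+TGFb and 1.58 in iTreg, 20.5-fold over rested and lowest in iTreg. Psat1, of serine synthesis, was 18.6-fold higher and Chac1 at least 37.3-fold. Trib3 was 2.64-fold lower, with a log2 difference of 0.06 on the spike-in scale. Glycolysis and hypoxia genes had 14 of 23 higher and 3 lower (median 1.22): Hk2, the first enzyme of glycolysis, was 16.7-fold higher and the lactate exporter Slc16a3 9.25-fold, while Txnip, which restrains glucose uptake, was 7.47-fold lower. Pdk1 and the glucose transporter Slc2a3 were the other 2 lower genes, by 4.01-fold and 3.74-fold.

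Lists of protein and energy machinery had lower medians than the amino acid list, to an extent that varied between them. The proteasome had 23 of 24 higher (median 1.48, range 0.50 to 2.52) and the respiratory chain 20 of 27 (median 1.34, range 0.22 to 2.59), with 0 lower in either. Cycs, cytochrome c, was 6.04-fold higher, and the proteasome subunit Psmd1 5.75-fold. The unfolded protein response had 12 of 20 higher and 0 lower (median 1.61), with Sdf2l1 10.8-fold, Xbp1 6.43-fold and the chaperone Hspa5 4.74-fold higher. Ribosome biogenesis had 17 of 26 higher and 1 lower (median 1.51), led by Nolc1 at 6.18-fold with another probe at 1.53 on the log2 scale. Cytosolic ribosomal proteins had 0 of 28 past 2-fold in either direction and a median of 0.03, which was below 0 when scaled to detected probes. With the spike-ins 26 of these 28 were higher. Lysosome and autophagy genes had 3 of 26 higher and 3 lower, and their median of -0.26 was above 0 with another background correction and 1.21 with the spike-ins.

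**Figure D4:**
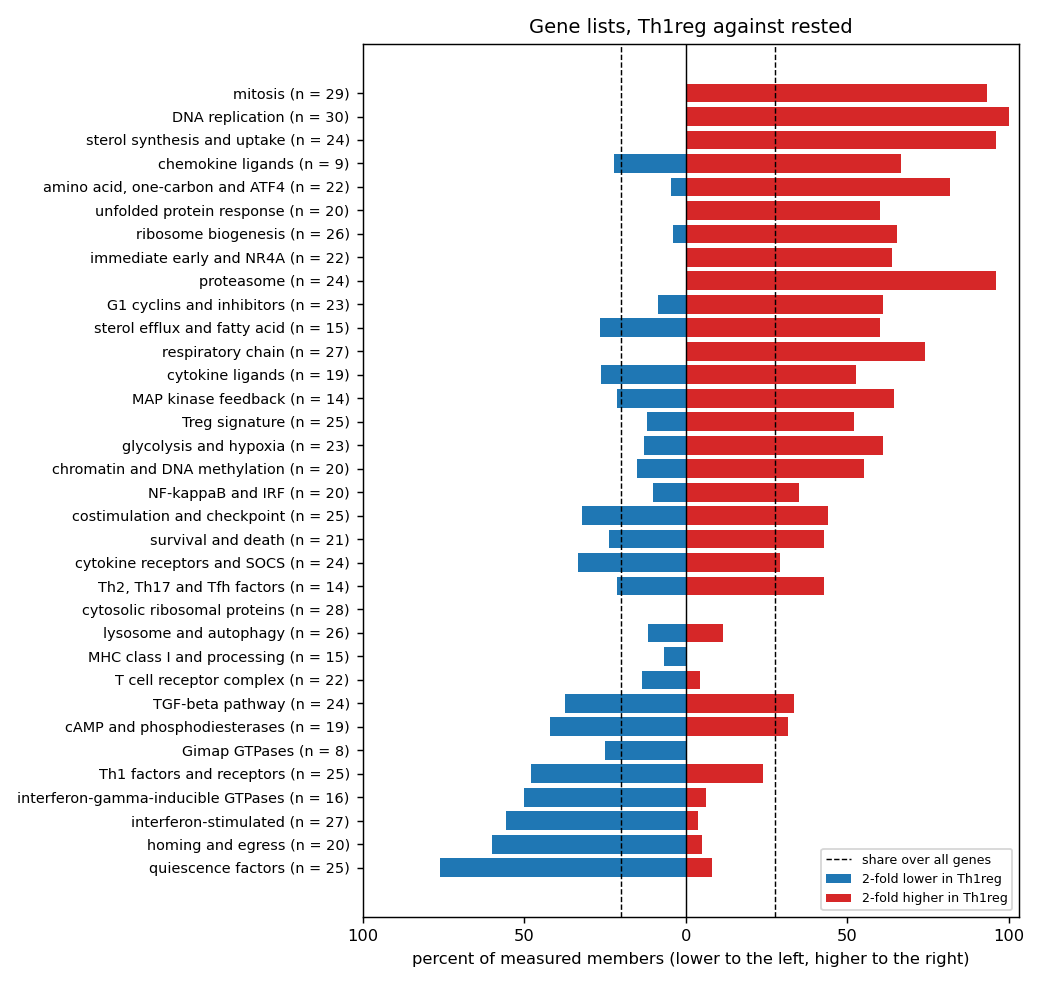
Percent of the measured members of each list, lists of cell type markers or with under 5 measured members left out, that were 2-fold higher (red, to the right) or lower (blue, to the left) in Th1reg than in rested, ordered by median difference, with n the number measured. Dashed lines mark the 27.6% and 20.0% over all compared genes; replication, mitosis, sterol and proteasome genes fill most of the right side, and among the lists drawn quiescence and homing genes reach farthest to the left.

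Regulators of survival had 9 of 21 higher (42.9%) and 5 lower (23.8%), against 27.6% and 20.0% over all genes. Their median of 0.52 was -0.04 with quantile normalization. The anti-apoptotic genes Bcl2l1 and Bcl2a1d were 8.25-fold and 10.9-fold higher, with Bcl2a1d being 1 of a set of near-identical genes. The pro-apoptotic genes Bcl2l11 (BIM), Bbc3 (PUMA) and Bmf were lower, by at least 9.17-fold, 5.65-fold and 3.75-fold. Neither class went 1 way: the anti-apoptotic Mcl1 was 2.25-fold lower, with a log2 difference of -0.25 by its other probe and of 0.30 for the first on the spike-in scale, and the pro-apoptotic Pmaip1 and Bak1 had log2 differences of 1.34 and 1.25. Chromatin and DNA methylation genes had 11 of 20 higher and 3 lower (median 1.18). Uhrf1 and Dnmt1, which copy DNA methylation at replication, were 16.2-fold and 6.61-fold higher, and the demethylase Tet1 was 3.39-fold lower. NF-kappaB and IRF genes had 7 of 20 higher and 2 lower (median 0.82): Irf8 was at 6.98 in Th1reg and 0.91 in rested, beside 6.94 in Th1, 4.77 in Th1+TGFb and 5.41 in iTreg, 67.2-fold over rested.

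Factors of the other helper lineages had 6 of 14 higher and 3 lower, and a median of 0.13 whose sign turned with both scalings to detected probes and when only genes measured on both arrays were kept. Bcl6, the factor of follicular helper T cells, was at -0.71 in Th1reg and 3.29 in rested, beside 0.61 in Th1, 3.58 in Th1+TGFb and 2.90 in iTreg, 16.0-fold lower than in rested. Gata3, the Th2 factor, was 2.11-fold lower, or 0.39 higher on the log2 scale with the spike-ins. Ccr4, a receptor of Th2 cells and Tregs, was 7.82-fold higher. Ahr, at least 5.23-fold higher, was not well above background in rested.

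Beyond those lists, several of the largest differences were in secreted and signalling proteins. Penk, the precursor of enkephalin peptides, was at 1.69 in Th1, 7.40 in Th1+TGFb, 5.79 in Th1reg and -0.28 in iTreg and not well above background in rested, a difference of at least 475-fold. Spp1 (osteopontin) was at 4.12 in Th1reg and -2.47 in rested, beside 1.19 in Th1, 6.55 in Th1+TGFb and -2.88 in iTreg, 96.2-fold over rested. The pair of arrays of Th1 cells given TGF-beta was highest for both. Hbegf, a growth factor, was 108-fold higher, Rgs16, an inhibitor of G protein signalling, 88.5-fold, Crabp2, a retinoic acid carrier, 86.7-fold and the kinase Nek6 68.8-fold.

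Among the genes lowest in Th1reg, Cd7 was at 4.39 in rested, beside -1.45 in Th1, 1.09 in Th1+TGFb and -1.34 in iTreg, and not well above background in Th1reg, at least 326-fold lower. Nod1, a sensor of bacterial cell wall, was 129-fold lower, the integrin Itga7 120-fold and the chemokine receptor Cxcr1 115-fold. Cxcr1 was also high in Th1 (4.53) and Th1+TGFb (4.25). Its Th1reg level of -3.78 was near the lowest well-measured level of that array (-3.96), which limits its fold. Dntt, which adds bases at receptor gene junctions in immature lymphocytes, was at 2.39 in Th1, 2.60 in rested and 1.28 in iTreg, and was not well above background in Th1reg or Th1+TGFb. It was at least 64.1-fold lower than in rested. Ifit1bl1 was at least 181-fold lower and Ifi214 71.4-fold, both from families of similar genes. For Trib2 the brightest probe gave 52.8-fold lower and another, not well above background in Th1reg, a log2 difference at least as low as -2.84.

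Setting the lists side by side over the arrays shows where the Th1reg levels lay. The median level of the DNA replication list was 5.10 in Th1, 1.68 in rested, 5.23 in Th1reg, 3.90 in Th1+TGFb and 4.80 in iTreg. The sterol list was also lowest in rested, with medians of 3.79 in Th1reg and 1.02 in rested, beside 3.29 in Th1, 3.63 in Th1+TGFb and 2.65 in iTreg. For quiescence factors the medians were 2.70 in Th1, 4.68 in rested, 2.38 in Th1reg, 3.31 in Th1+TGFb and 3.39 in iTreg. The Th1 list had medians of 2.76 in Th1, 2.69 in rested, 3.09 in Th1reg, 4.51 in Th1+TGFb and 0.48 in iTreg, so Th1reg lay near Th1 and rested and above iTreg. A median of levels and a median of differences need not share a sign, as in the Th1 list, whose median difference was -0.85.

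**Figure D5:**
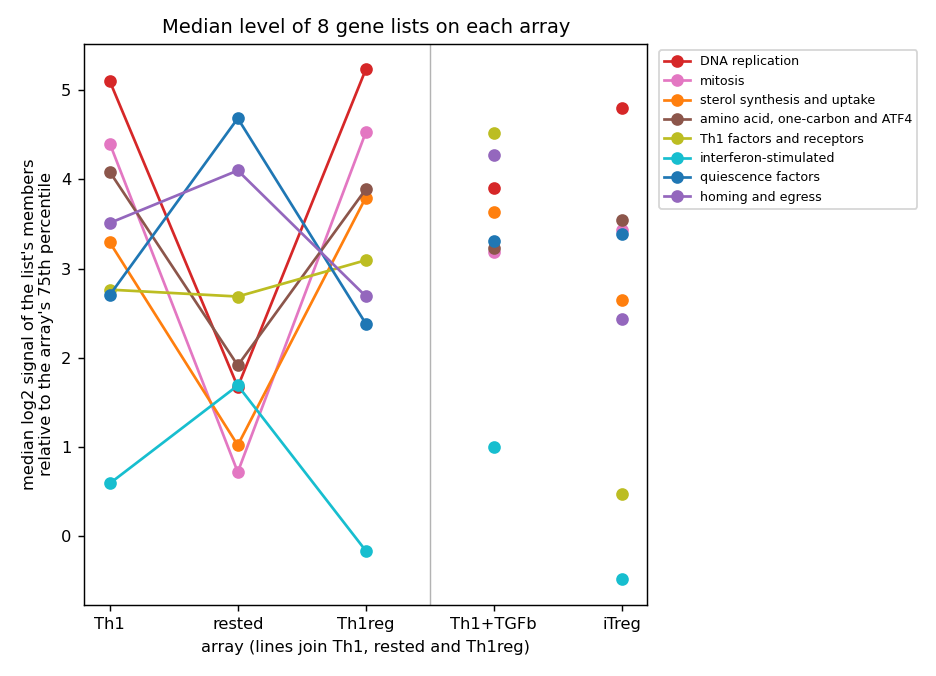
Median log2 signal, relative to the array's 75th percentile, of the members with a probe of 8 gene lists on each array, with lines joining Th1, rested and Th1reg. Levels under the array's lowest well-measured level were raised to it. Replication, mitosis, sterol and amino acid lists are lowest in rested, and quiescence and homing lists are higher in rested than in Th1 or Th1reg; levels of different lists are not comparable.

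Marker genes of cells other than CD4 T cells were checked on the same arrays. The 9 T cell markers were all well above background on both arrays, 1 higher (Thy1) and 1 lower (Cd28), with a median difference of -0.01 whose sign turned with the deposited value table, with another background correction and with the spike-ins (1.45). Of 9 B cell markers 5 were measured and 4 were lower, and neither array had Cd79a, Pax5 or Blk well above background. Their summed signal was 1.48 times the 75th percentile in Th1reg and 6.10 times in rested. Of 12 myeloid markers 8 were measured and 6 were lower, while S100a8, S100a9, Lyz1 and Lyz2 were near background on both. The summed myeloid signal was 396 in Th1reg and 1734 in rested, nearly all of it from Siglech, Csf3r and Itgam, which were well above background on all 5 arrays. Whether these 3 probes report the genes they are named for was not tested, so the sums are no measure of myeloid RNA. CD8 T and NK cell markers had 3 of 5 measured lower and 1 higher (Crtam), with sums of 16.1 in Th1reg and 86.4 in rested. By the brightest probe of each gene, neither array had Cd8a, Ncr1 or Klrb1c well above background. A further Cd8a probe was well above background on only 1 of these arrays and gave no clear direction. Most of the rested sum came from Klra1, at a level of 6.35 there and 2.60 in Th1reg. Crtam was at 3.08 in Th1reg and 0.88 in rested. With the spike-ins 3 B cell, 2 myeloid and 1 of the CD8 T and NK markers were 2-fold lower. In each of these lists 1 was higher. Of 6 dendritic cell markers 3 were measured, 1 higher and 1 lower, and 0 of 4 erythroid markers with a probe were. The part of other cells in the lower groups was not tested.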

How the data were processed

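The 5 arrays were 1-colour Agilent mouse arrays with Cy3-labelled total RNA, 1 per culture. The authors deposited scanner output of Agilent Feature Extraction 10.7.1.1, per the submitters' processing notes; its processed signal is a linear intensity, from which the software had taken off the background and spatial trends, per the file headers; arrays were not scaled to each other. The deposited value table is also a linear intensity, used only as an alternative. Each array had 62976 spots, of which 59305 were not controls. The 109 to 142 spots per array marked as outliers were left out, repeat spots were averaged, log2 was taken, and the log2 of the 75th percentile was subtracted.

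RefSeq accessions paired probes with gene names from a table of assembly GRCm38.p6 (28325 probes, 21366 genes, 5750 with several probes), while the array design names mm9, so no gene coordinates are given. The probe with the highest mean level stood for the gene. Genes at background in both cultures were dropped, and 222 genes with no clear direction were set to 0. A gene was called at 2-fold. The 40 lists, the rule for named genes and the comparison itself were chosen with earlier results of these data known. The rule named Foxp3, Ccr8, Lrrc32, Klf2, Tbx21, Ifng, Il10, Ctla4 and Il2ra, the 10 largest differences each way among genes measured on both arrays, the 6 largest bounds each way, all Treg signature genes, and in each list the 5 members farthest from 0 and those 2-fold against its median. The text names part of these, and some genes are not reported here. Other members named, such as Smad2, Stat4, Acat2, Jun, Pmaip1 and Bak1, were chosen after their values were seen. The ranking skipped predicted genes, Xist and Y-linked genes. List genes with no named probe were Itgae, Mx1, Mx2, H2-T22, Psme2, Pycr1, Bcl2a1a, Hbb-bs and Ahsp. The number of arrays limits the precision, and no test was possible. The calling step was tested on simulated data. Alternatives were 4 other scalings, another background correction, 2 other filters, all probes of a gene, the deposited table and a 4-fold limit. Work was done in Python 3.11.15 with pandas 2.3.3 and in R 4.3.3 with limma 3.58.1.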

Additional observations from a re-analysis of the deposited data

How the results depend on the processing

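The main counts were 3680 genes higher and 2666 lower in Th1reg. Scaled to the spike-ins they were 9533 and 732. With the 75th percentile of detected probes 2124 were higher, and with a 4-fold limit 1191 were higher and 1110 lower. The lower count was 1568 with normexp background correction, 4408 with no filter or floor (all 21366 genes) and 1631 when only genes measured on both arrays were kept (11206 genes). The spike-in and detected-probe scalings shift every difference measured on both arrays by a constant, and why these constants differ was not tested. The cause was not tested for normexp. The last 2 settings differ in the number of genes counted and the 4-fold limit in its height. Normexp was run on median signals, a choice made after the files were seen, since they hold no mean signals. All other counts were within 1.5 times the main ones. With the spike-ins the median of the interferon-stimulated list turned to 0.37, and of 181 named genes past 2-fold, 152 stayed past it in the same direction, 20 came within 2-fold and 9 changed sign: Cd28 (0.11), Gata3 (0.39), Ikzf2 (0.22), Mcl1 (0.30), Prdm1 (0.10), Ptpn22 (0.21), Smad7 (0.28), Tgfbr2 (0.045) and Trib3 (0.064). Under the other settings 0 changed sign and at most 11 came within 2-fold (normexp and quantile normalization). Signals near the lowest well-measured level limit folds of dim genes. No paired analysis was possible because each group had 1 array, and for the same reason no replicate could be left out.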

Other observations

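Probes that matched no named gene were left out of the comparison above. Of 27345 such probes, 11498 were well above background in Th1reg or rested, and 1161 of them were 2-fold higher in Th1reg and 4858 lower (42.3%), with a median log2 difference of -0.67. Among the 6078 of these that the array design names by genome coordinates alone, 348 were higher and 2914 lower (47.9%), with a median of -0.93. The matched probes had 27.5% higher and 18.8% lower, with a median of 0.29. What these probes detect is not known here, and the part of their dimness in this difference was not tested.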
